A study of Homo sapiens with 6 samples.

Results

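The genes described here make ribosomes: 42 genes for RNA polymerase I, for the particles that process and modify ribosomal RNA, and for the factors that assemble the small and large ribosomal subunits. They were chosen by name, from their function, but with earlier results of these data known. Every probe set annotated to one of them was read. Of the 42, 35 had at least 1 probe set annotated to that gene alone (67 probe sets), out of 19775 genes measured in this way. DKC1, NOP56, BOP1 and PPAN were represented only by probe sets that also carry other gene symbols. GNL3, DDX18 and EBNA1BP2 had no annotated probe set, so their expression was not read. All 35 measured genes had a mean level above the median gene level.

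Side population (SP) cells and non-SP cells of IGROV1 were compared, with 3 samples in each group. IGROV1 is a long-established line of human ovarian carcinoma. The side population is the small fraction of cells that stays dim after staining with Hoechst 33342, a DNA-binding dye that membrane pumps export; non-SP cells are the cells outside it, and the labels give no further treatment. Both groups were sorted by Hoechst staining from the same line, grown in medium with serum. RNA from each sample was amplified with a kit for very small inputs and hybridised to 1 array, which gave log2 expression per probe set. The labels call the samples biological replicates without stating separate cultures, so each p-value reflects the spread among 6 samples, part of which may be technical.

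Ribosome production starts in the nucleolus, where RNA polymerase I transcribes a long precursor RNA. Box C/D and box H/ACA particles, each guided by a small nucleolar RNA, methylate and pseudouridylate it, the small subunit processome releases the small subunit precursor, and a separate set of factors folds the large subunit. The process consumes much of the energy of a growing cell, is driven by the transcription factor MYC, which binds the E-box CACGTG, and is slowed when amino acids are short.

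The E-box was a sequence feature that many of these genes shared. They were chosen by function and not by promoter sequence, but whether that choice favoured genes driven by MYC was not tested. Promoter windows of 250 bases before to 50 bases after the annotated start were taken from RefSeq (GRCh38.p14) and searched for CACGTG, which reads the same on both strands. The 35 members with a promoter entry are not the same set as the 35 measured genes. They include GNL3 and EBNA1BP2, and lack RRS1 and RRP1B among others. Of these 35 with an entry, 17 had the motif in at least 1 window (48.6%). The share was 26.4% of 129 other ribosome biogenesis genes, 10.9% of 15843 protein-coding genes and 8.77% of all 27305 genes with an entry. The first base of the motif lay between positions -237 and 42, counted with the start as position 0, and NOP10 was the 1 member with a pair of motifs in a window. A match describes the sequence and does not show that a factor binds there.

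**Figure D1:**
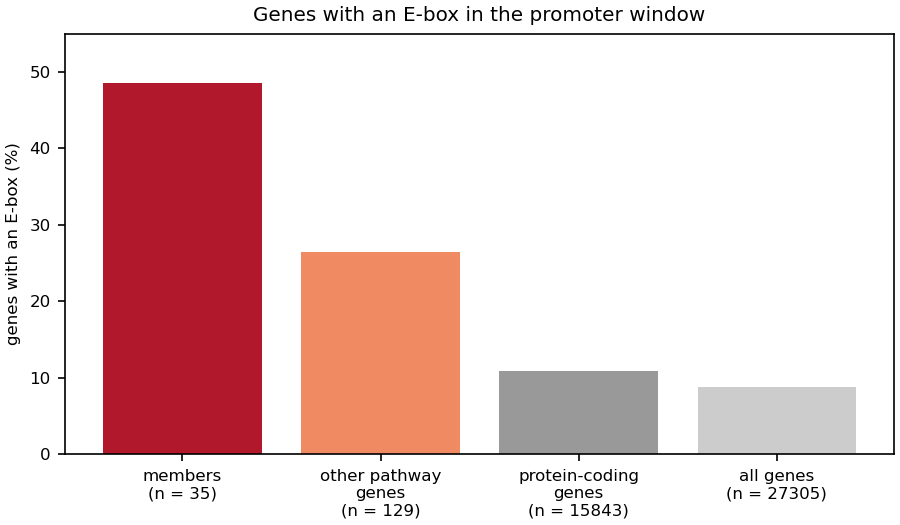
Share of genes (y axis, percent) with at least 1 E-box in the promoter window, for the members, 129 other ribosome biogenesis genes, protein-coding genes and all genes with a RefSeq promoter entry. The members have the highest bar, at 48.6%, and all genes the lowest, at 8.77%.

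The windows of 4 members are shown because they hold the motif and belong to genes whose values are given in full below; capitals mark the E-box. They lie at chr10:68956397-68956696 on the plus strand for DDX21 (the second of its 2 windows), chr1:19251555-19251854 on the plus strand for MRTO4, chr12:6568242-6568541 on the minus strand for NOP2 and chr12:101279855-101280154 on the plus strand for UTP20. Each is written 5′ to 3′ in the direction of its gene.
DDX21: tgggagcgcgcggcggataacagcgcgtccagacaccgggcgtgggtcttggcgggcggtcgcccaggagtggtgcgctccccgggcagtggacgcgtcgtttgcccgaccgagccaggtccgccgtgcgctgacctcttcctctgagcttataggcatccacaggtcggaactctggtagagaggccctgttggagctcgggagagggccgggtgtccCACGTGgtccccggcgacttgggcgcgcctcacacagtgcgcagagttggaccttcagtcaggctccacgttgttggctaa
MRTO4: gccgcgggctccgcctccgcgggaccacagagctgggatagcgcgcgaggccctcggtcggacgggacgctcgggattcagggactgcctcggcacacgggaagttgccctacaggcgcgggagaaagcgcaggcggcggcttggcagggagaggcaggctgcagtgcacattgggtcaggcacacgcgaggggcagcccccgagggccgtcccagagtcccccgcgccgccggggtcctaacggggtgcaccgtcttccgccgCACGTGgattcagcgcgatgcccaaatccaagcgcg
NOP2: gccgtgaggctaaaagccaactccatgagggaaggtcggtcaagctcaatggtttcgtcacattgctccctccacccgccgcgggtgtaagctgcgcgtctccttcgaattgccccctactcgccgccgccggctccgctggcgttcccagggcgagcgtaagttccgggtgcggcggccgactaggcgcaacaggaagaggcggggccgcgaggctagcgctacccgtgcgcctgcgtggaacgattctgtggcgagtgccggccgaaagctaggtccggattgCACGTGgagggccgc
UTP20: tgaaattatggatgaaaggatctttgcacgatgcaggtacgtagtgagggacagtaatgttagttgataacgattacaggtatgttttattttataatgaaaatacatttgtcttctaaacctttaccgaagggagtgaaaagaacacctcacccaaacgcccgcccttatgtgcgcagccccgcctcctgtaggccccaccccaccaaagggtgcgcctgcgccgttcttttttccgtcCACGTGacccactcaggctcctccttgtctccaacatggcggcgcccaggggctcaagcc
The motif began 31 bases before the start in DDX21 and 10 bases before it in UTP20, and 14 and 35 bases after it in MRTO4 and NOP2.

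Ribosome biogenesis genes were first compared between the sorted groups. No member passed the test: 0 of 35 had an adjusted p under 0.05 (limma, Benjamini-Hochberg over all 19775 genes, of which 0.00506% passed), with adjusted p from 0.677 to 0.996. At an unadjusted p under 0.05 there was 1 member, RRS1, against 6.78% of all genes. The log2 difference (SP minus non-SP) was above 0 for 25 of 35 members (71.4%), against 45.3% of all genes and 49.1% of the genes above the median level. The median difference was 0.10 over the members and -0.02 over all genes. For 29 of the 35, the 95% interval lay within 1 log2 unit of 0 on both sides, so a 1-unit difference fell outside the interval for these genes and inside it for the other 6. Fewer cells of a kind and less RNA per cell cannot be told apart in such samples, and since the normalization gives all arrays the same distribution, a change in total RNA would not be seen.

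The median moved with single samples. It was 0.22 without SP replicate 1 (30 of 35 above 0) and 0.03 without SP replicate 2 (21 above 0). It was 0.17 without non-SP replicate 2 (26 above 0) and 0.06 without non-SP replicate 3 (22 above 0).

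**Figure D2:**
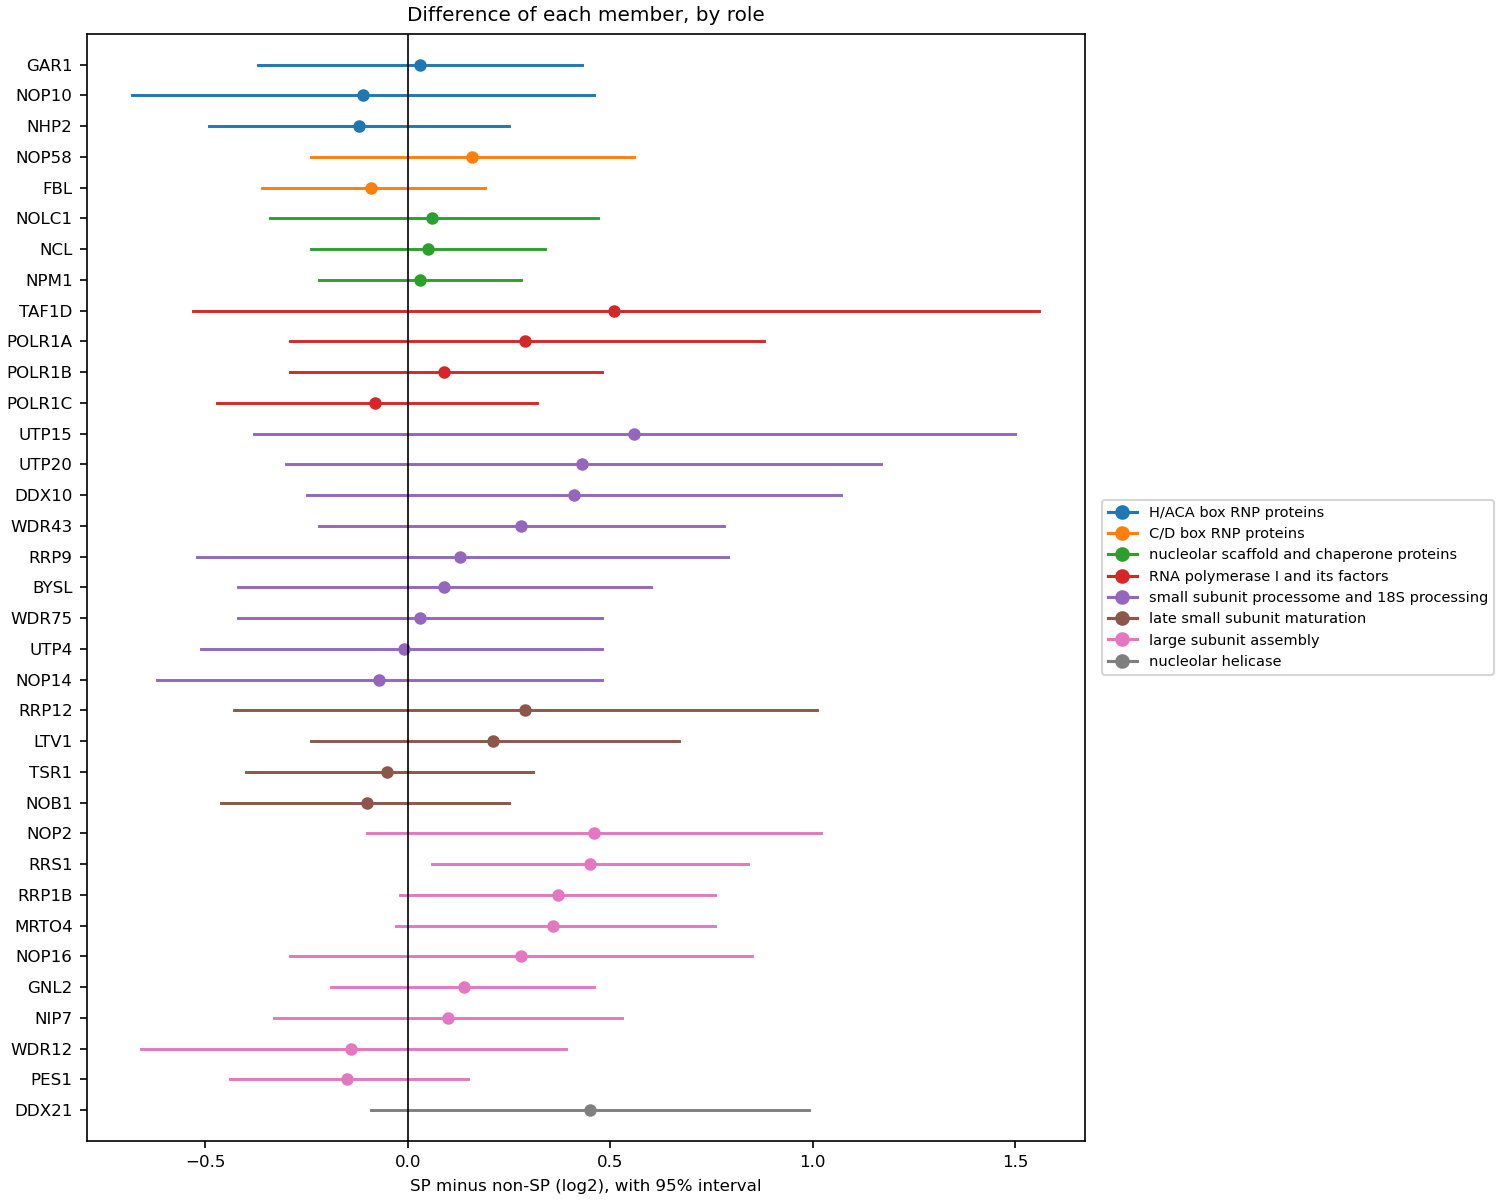
Difference of each of the 35 measured members (SP minus non-SP, log2; x axis) with its 95% interval as a line, coloured by role. Of the 35 points, 25 lie right of 0, and RRS1 is the 1 gene whose interval leaves out 0.

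Among the large subunit assembly factors, 9 were measured, 7 of them with a difference above 0 and a median of 0.28. RRS1, which helps place the 5S RNA particle in the large subunit, had log2 levels of 9.92, 10.37 and 10.32 in SP cells, against 9.68, 9.92 and 9.66 in non-SP cells. The lowest SP value (9.9160) lay just under the highest non-SP value (9.9162), so the groups met at their edges. Its difference was 0.45 (SE 0.16, 95% interval 0.06 to 0.84, limma unadjusted p = 0.0307, adjusted p = 0.677).

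RRP1B, a nucleolar protein of the large subunit pathway, had 9.32, 9.44 and 9.61 in SP cells and 8.82, 9.20 and 9.25 in non-SP cells. With 1 probe set per gene, it was the 1 member with all SP values above all non-SP values, against 4.78% of all genes. In the same reading 0 members had all SP values below, against 7.1% of all genes. The difference of 0.37 (SE 0.16) had an adjusted p of 0.745 in limma, and the other RRP1B probe set differed by -0.15. Among the further probe sets of single members, 1 of NPM1 also had all SP values above, and 1 each of RRP12 and TSR1 had all below.

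MRTO4, a relative of the ribosomal stalk protein P0 that holds its place during assembly, had 9.62, 10.12 and 10.03 in SP cells, against 9.51, 9.68 and 9.48 in non-SP cells. SP replicate 1 lay below the highest non-SP value, and the difference was 0.36 (SE 0.16, adjusted p = 0.746). NOP2, a methyltransferase of the large subunit RNA, had 8.03, 8.48 and 8.24 in SP cells and 7.89, 8.14 and 7.33 in non-SP cells. Non-SP replicate 3 was the lowest of the 6 samples for NOP2, and the groups overlapped (difference 0.46, SE 0.24, adjusted p = 0.801).

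NOP16, another large subunit factor, differed by 0.28 (SE 0.24; -0.11 to 0.28 over its 4 probe sets), the GTPase GNL2 by 0.14 (SE 0.14) and NIP7 by 0.10 (SE 0.18). WDR12 and PES1, partners of BOP1 in the PeBoW complex that processes the large subunit RNA, differed by -0.14 (SE 0.22) and -0.15 (SE 0.12), all with overlapping groups. The sign for WDR12 depended on the probe set, as its further ones differed by 0.08 and 0.09. The other, dim PES1 probe set differed by -0.39. The 2 probe sets annotated to BOP1 together with the microRNA gene MIR7112, which lies inside it, differed by -0.19 and -0.15; for the first of them the SP values (7.91, 7.95 and 7.70) all lay below the non-SP values (8.11, 8.06 and 7.95), by a margin lost in rounding. PPAN, a further large subunit factor, shares its probe set with the read-through gene PPAN-P2RY11. That probe set had 8.02, 8.35 and 8.16 in SP cells and 7.95, 7.73 and 7.76 in non-SP cells, and differed by 0.37 (SE 0.14) with groups that did not overlap. Its adjusted p over all 54613 non-control probe sets, of which 0.00183% passed, was 0.653 in limma.

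DDX21, an RNA helicase that acts in both polymerase I transcription and rRNA processing, had 10.31, 10.91 and 10.80 in SP cells, against 9.99, 10.58 and 10.10 in non-SP cells. SP replicate 1 lay below non-SP replicate 2, and the difference was 0.45 (SE 0.22, adjusted p = 0.791). Its second probe set differed by 0.39.

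In the small subunit processome, 7 of 9 members had a difference above 0, with a median of 0.13 and the smallest adjusted p at 0.879. UTP15, of the subcomplex tied to polymerase I transcription, had 8.12, 9.14 and 9.10 in SP cells and 7.63, 8.86 and 8.18 in non-SP cells. It had the highest difference of the members, 0.56 (SE 0.39), but also an interval from -0.38 to 1.50, with a wide spread in both groups.

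UTP20, which takes part in 18S rRNA processing, had 7.37, 8.36 and 8.44 in SP cells, against 7.54, 7.90 and 7.42 in non-SP cells. SP replicate 1 was the lowest of all 6 samples, while the other SP samples were the highest, and the difference was 0.43 (SE 0.31). The helicase gene DDX10 had 8.47, 9.20 and 9.23 in SP cells and 8.18, 8.95 and 8.54 in non-SP cells (difference 0.41, SE 0.28; -0.11 for its other, dim probe set). WDR43, a partner of UTP15, had 9.64, 10.03 and 9.84 in SP cells and 9.55, 9.92 and 9.21 in non-SP cells (difference 0.28, SE 0.21). In all of these the groups overlapped.

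The U3 particle protein RRP9 differed by 0.13, BYSL by 0.09 and WDR75 by 0.03, whereas UTP4 differed by -0.01 and NOP14 by -0.07. UTP4 depended on the probe set, the other one of that gene alone differing by 0.43. Of the late small subunit factors, RRP12, an export factor, differed by 0.29 (SE 0.30; -0.16 to 0.29 over its 5 probe sets), and the export adaptor LTV1 by 0.21 (SE 0.19). TSR1 and the endonuclease NOB1, which makes the final cut of 18S rRNA, differed by -0.05 (SE 0.15) and -0.10 (SE 0.15). The second LTV1 probe set differed by -0.59, and 2 of the 4 TSR1 probe sets had the opposite sign. Of 19 members with more than 1 probe set, 8 had the same sign in all of them.

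Of the 4 genes of RNA polymerase I and its factors, 3 had a difference above 0 and 0 passed the test. POLR1A, its largest subunit, had 9.13, 9.46 and 9.48 in SP cells and 9.05, 9.52 and 8.61 in non-SP cells. Non-SP replicate 2 was the highest and non-SP replicate 3 the lowest of the 6 samples, and the difference was 0.29 (SE 0.24, adjusted p = 0.903), with 0.08 to 0.35 over its 3 probe sets. POLR1B, the second largest subunit, had 8.34, 8.37 and 7.96 in SP cells and 7.96, 8.26 and 8.16 in non-SP cells, and differed by 0.09 (SE 0.16). Its 4 probe sets ranged from -0.04 to 1.11, and their mean differed by 0.38; the highest came from a dimmer probe set with 6.06, 6.79 and 6.59 in SP cells and 4.07, 5.95 and 6.09 in non-SP cells (SE 0.55, adjusted p over all probe sets = 0.748 in limma). POLR1C, shared with RNA polymerase III, had 10.69, 10.81 and 10.92 in SP cells and 10.60, 10.95 and 11.11 in non-SP cells, and differed by -0.08 (SE 0.16).

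TAF1D, a subunit of the factor that recruits polymerase I to the rRNA promoter, had 8.98, 8.72 and 9.16 in SP cells, against 8.94, 7.38 and 9.00 in non-SP cells. The difference of 0.51 (SE 0.44) rested on non-SP replicate 2, and without that sample it was -0.02. The 2 other TAF1D probe sets, which also carry the symbols of small RNA genes inside the gene, differed by 0.03 and 0.11.

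The abundant nucleolar proteins had narrow intervals. FBL, fibrillarin, the methyltransferase of box C/D particles, had 12.26, 12.39 and 12.36 in SP cells and 12.39, 12.34 and 12.54 in non-SP cells, and differed by -0.09 (95% interval -0.36 to 0.19). NCL, nucleolin, had 12.52, 12.72 and 12.73 in SP cells and 12.51, 12.65 and 12.66 in non-SP cells (difference 0.05, interval -0.24 to 0.34). NPM1, nucleophosmin, had 13.31, 13.32 and 13.33 in SP cells and 13.31, 13.22 and 13.33 in non-SP cells (difference 0.03, interval -0.22 to 0.28). Its range over the 6 samples, 0.11, was the smallest among the members, whose median range was 0.65.

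NOLC1, which shuttles particle components to the nucleolus, differed by 0.06 (SE 0.17) and NOP58, a core box C/D protein, by 0.16 (SE 0.17). The more highly expressed of the 2 probe sets annotated to NOP56 and to the small RNA genes inside it differed by -0.02 (SE 0.12). In the box H/ACA particle, GAR1 differed by 0.03 (SE 0.17), NOP10 by -0.11 (SE 0.24) and NHP2 by -0.12 (SE 0.15). The 3 probe sets annotated to the pseudouridine synthase gene DKC1 together with SNORA56 and MIR664B, which lie inside it, differed by 0.35 (SE 0.24), 0.23 (SE 0.30) and 0.30 (SE 0.23).

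**Figure D3:**
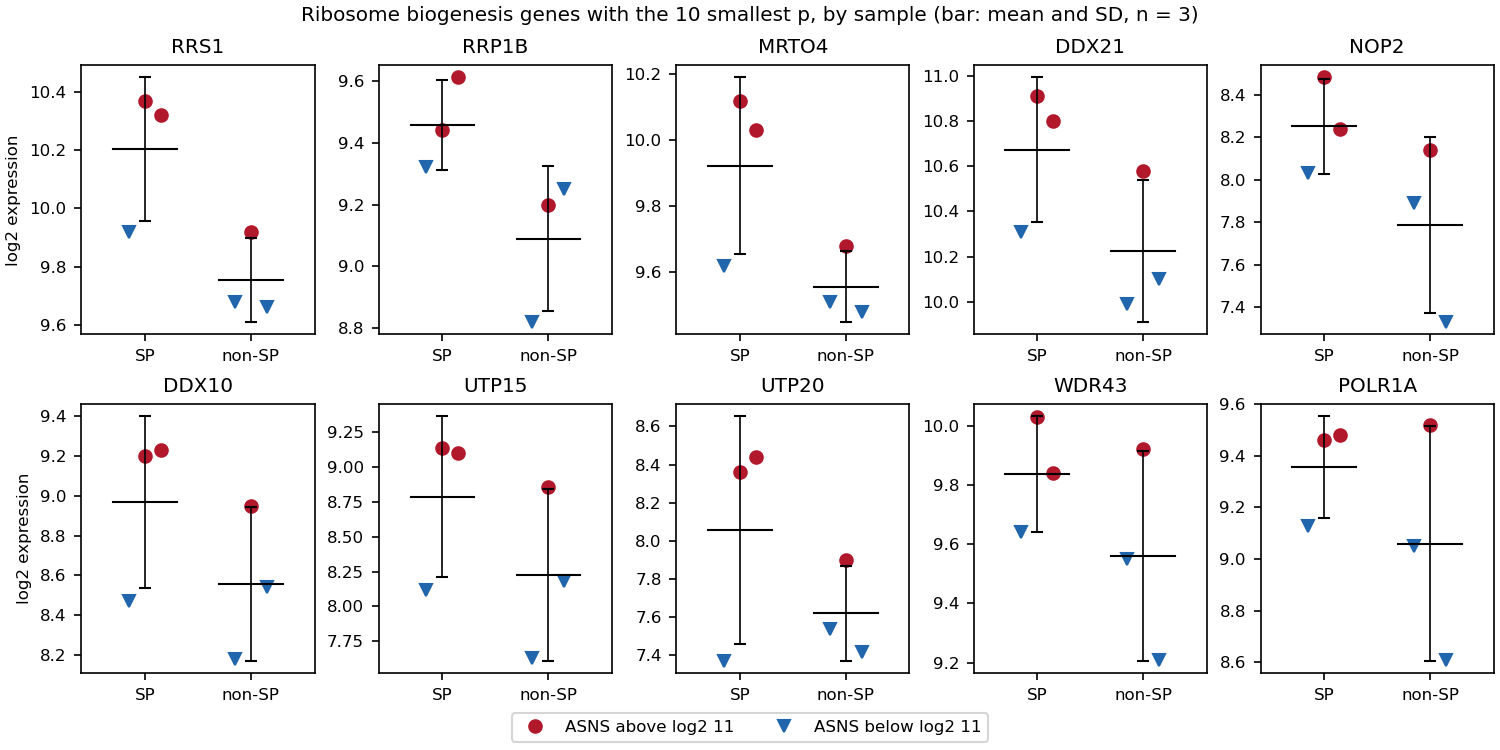
Log2 expression (y axis) in each SP and non-SP sample for the 10 members with the smallest unadjusted p; bars are the mean and SD of 3 samples, and the symbols mark whether ASNS was above or below log2 11. In every panel except RRP1B the samples of high ASNS are the highest of their own group, as in UTP15, where they lie between 8.86 and 9.14.

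Control probe sets also carried a signal for the ribosomal RNAs, the product of the pathway. They do not measure the amount of rRNA per cell: over the 3 probe sets of 28S rRNA, levels ran from 4.91 to 14.31. The middle 18S rRNA probe set had 14.21, 14.20 and 14.18 in SP cells and 14.21, 14.17 and 14.24 in non-SP cells, and the 5′ probe set of 28S rRNA had 14.31, 14.29 and 14.29 in SP cells and 14.28, 14.23 and 14.29 in non-SP cells. Differences were -0.01 and 0.03 (exact permutation test, two-sided, p = 0.7 and 0.3; 3 against 3 samples cannot go below 0.1). These values lay close to the highest on the arrays (14.52 to 14.55), where a difference may not be seen. The middle 28S probe set, which was dimmer, had 10.63, 10.63 and 10.66 in SP cells and 10.63, 10.65 and 10.62 in non-SP cells (exact permutation p = 0.5). The 5′ probe set of 18S rRNA had 13.29, 13.16 and 13.16 in SP cells and 13.36, 13.10 and 13.26 in non-SP cells (exact permutation p = 0.7). The exact p of the other 18S and 28S probe sets, both at the 3′ end, were 0.9 and 0.6.

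The samples also parted along another line. ASNS encodes asparagine synthetase, a gene switched on when amino acids are short. Its level was 12.39 in SP replicate 2, 12.43 in SP replicate 3 and 12.64 in non-SP replicate 2, against 9.78 in SP replicate 1, 9.60 in non-SP replicate 1 and 9.90 in non-SP replicate 3. A level of 11 thus parts the 6 samples into 3 and 3, with both cell groups on each side. This split comes from a measured value and not from the labels, the samples on each side are not groups of the study, and the counts by ASNS level are a description with no test.

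Many ribosome biogenesis genes ran with the ASNS level. In 21 of 35 members (60%) the 3 samples of high ASNS all lay above the 3 of low ASNS, against 13.1% of all genes and 20.3% of the genes above the median level. In 2 members (5.71%) they all lay below, against 13.7% and 19% of those genes. By sample, 31 members lay above their own mean in SP replicate 2, 28 in SP replicate 3 and 26 in non-SP replicate 2, against 10 in SP replicate 1, 9 in non-SP replicate 1 and 9 in non-SP replicate 3.

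Among the role groups of 9, the pattern was seen in 7 small subunit processome genes and 6 large subunit genes. UTP15 had 9.14, 9.10 and 8.86 in SP replicates 2 and 3 and non-SP replicate 2, against 8.12, 7.63 and 8.18 in SP replicate 1 and non-SP replicates 1 and 3. Between the lowest of the first 3 and the highest of the others the gap was 0.68, the widest among the members. DDX10, NOP16, RRP12 and UTP20 followed with gaps of 0.41, 0.41, 0.38 and 0.36, and POLR1A with 0.33. For NOP16 this depended on the probe set: 2 of its 4 had the pattern, and the other 2 had it reversed, one with 9.55, 9.68 and 9.54 in the samples of high ASNS, against 9.83, 9.91 and 9.89 in those of low ASNS. Of the 21 members, 11 had more than 1 probe set, and in 3 of these (DDX21, NIP7 and UTP15) every probe set had the pattern. Of all 67 probe sets of the members, 28 had it (41.8%) and 4 had it reversed (5.97%), against 10.9% and 12% of all probe sets. The latter shares cover probe sets of any level, also those without a symbol, and no share was taken over the brighter ones. The median gap of the 21 was 0.21. At the other end, RRS1 counted among the 21 only by the fourth decimal, with 9.9162 in non-SP replicate 2 against 9.9160 in SP replicate 1.

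The other 14 members did not share the pattern. NHP2 and NOB1 ran the other way: NHP2 had 10.86, 11.04 and 11.01 in the samples of high ASNS, against 11.28, 11.28 and 11.25 in those of low ASNS. The remaining 12 overlapped, among them NCL, NPM1, FBL, POLR1B, POLR1C, PES1, GNL2 and RRP1B. All 3 probe sets annotated to DKC1 had their highest values in the samples of high ASNS, for one of them 11.80, 11.79 and 11.67, against 11.24, 11.01 and 11.11. The other probe sets with several symbols were mixed. The dimmer one of NOP56 had the pattern, while its brighter one and those of BOP1, PPAN and TAF1D overlapped. The one annotated to both UTP4 and HAS3 ran the other way. Of the members with a promoter entry and a probe set of their own, the pattern was seen in 10 of 15 with an E-box and 7 of 15 without one.

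**Figure D4:**
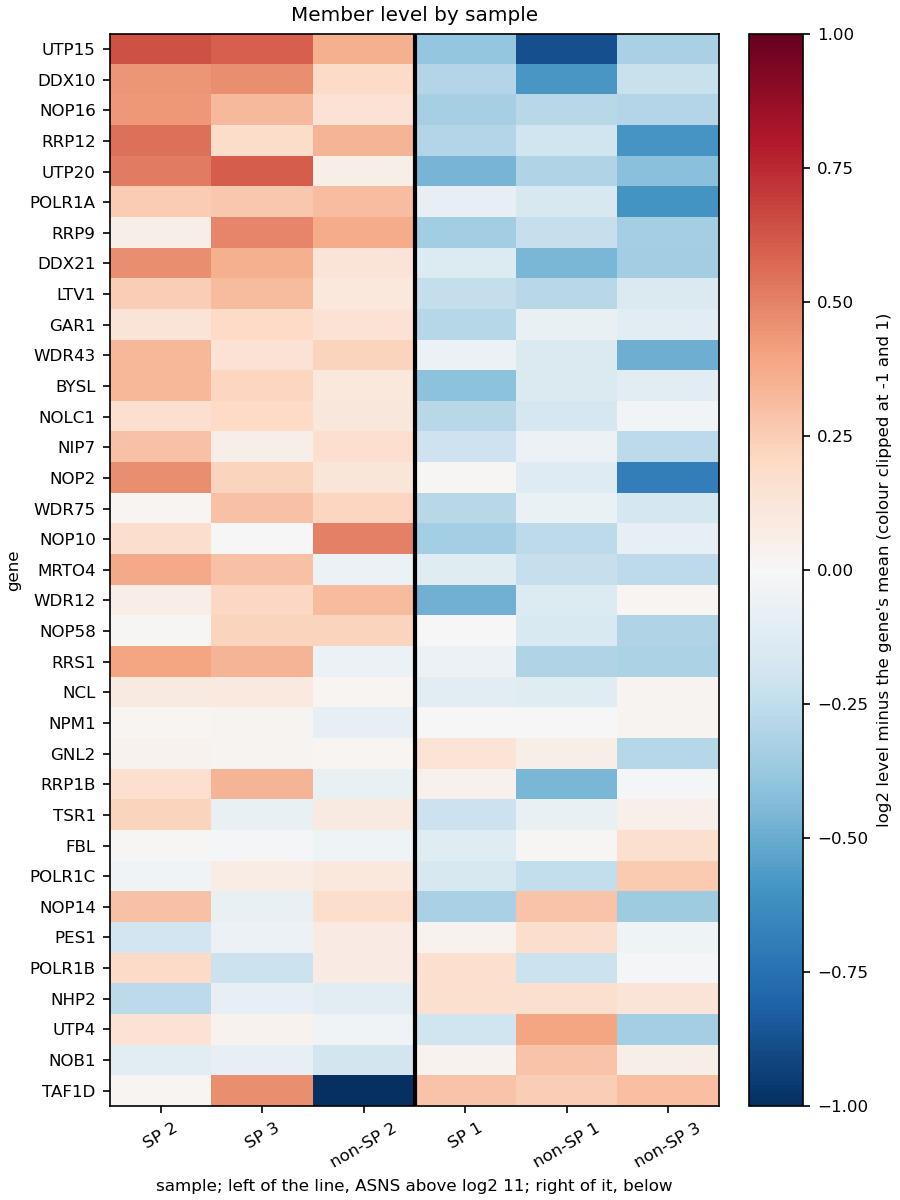
Level of each of the 35 members (rows) in each sample (columns), as log2 minus the gene's own mean, with the 3 samples of ASNS above 11 left of the line and the others right of it. Rows run from the widest gap between the sides (UTP15, 0.68) at the top; the upper 21 rows are above 0 mostly on the left side and below 0 mostly on the right.

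The 3 probe sets of 18S rRNA ran the other way, all lower in the samples of high ASNS. The 5′ one had 13.16, 13.16 and 13.10 there, against 13.29, 13.36 and 13.26 in those of low ASNS, and for the middle and 3′ ones all 6 values lay within 0.07. For comparison, 13.7% of all genes were all lower. The 28S rRNA probe sets did not share this. The 5′ and 3′ ones overlapped, and the middle one had 10.63, 10.66 and 10.65 against 10.63, 10.63 and 10.62. The 3′ minus 5′ signal of ACTB, a measure of RNA integrity and amplification, also followed the ASNS level. It was 2.48, 2.46 and 2.55 in the samples of high ASNS, against 2.08, 2.02 and 2.29 in those of low ASNS. Its part in the result was not tested. The same measure for GAPDH had 0.04, 0.17 and 0.36 against 0.14, 0.15 and 0.04, and overlapped.

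SP and non-SP cells were then set against each other within each ASNS level. Among samples of high ASNS (2 SP, 1 non-SP) the members' median difference was 0.04 with 23 of 35 above 0, and among those of low ASNS (1 SP, 2 non-SP) it was -0.03 with 15 above 0. The sign was positive at both levels in 11 members and negative at both in 8. Over all 19775 genes the medians were -0.04 and -0.01, with 8600 above 0 at high ASNS and 9581 at low ASNS. Of all genes, 4786 were positive at both levels and 6378 negative at both. With the ASNS level as a block in limma, the median was 0.05 and 19 members lay above 0. RRS1 then differed by 0.34 (adjusted p = 0.374), DDX21 by 0.27 (adjusted p = 0.451), RRP1B by 0.31 (adjusted p = 0.56) and MRTO4 by 0.26 (adjusted p = 0.516). These p come from a fit that uses the split, and they may be too small, because the block was read from the same arrays.

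MYC did not part by ASNS. It had 10.74, 10.46 and 10.39 in SP cells, against 9.97, 9.64 and 10.01 in non-SP cells, with no overlap. Over all genes, 4.78% had all SP values above all non-SP values. The difference of 0.65 (SE 0.16) had an unadjusted p of 0.00513 and an adjusted p of 0.497 in limma, and it was 0.78 within the samples of high ASNS and 0.75 within those of low ASNS. MNT, which represses MYC targets, differed by -0.38 (SE 0.15, adjusted p = 0.703). Of 9 measured genes of the MYC network, 0 passed and 6 lay above 0. Although MYC did not follow the ASNS level, 3 of the 9 (33.3%) did: MAX, MXI1 and MLX. In these the samples of high ASNS all lay above the others, with gaps of 0.71, 0.28 and 0.11. The share was 13.1% of all genes and 20.3% of the genes above the median level. In 0 of the 9 they all lay below.

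Further genes of the pathway were read in 5 lists. Of their 145 measured genes, 0 passed the test, and the median difference was 0.08. In 97 (66.9%) the difference was above 0, against 45.3% of all genes and 49.1% of the genes above the median level. The samples of high ASNS all lay above the others in 45 of them (31.0%) and all below in 16 (11%). These shares were 13.1% and 13.7% over all genes, and 20.3% and 19% over the genes above the median level. Among 47 other small subunit genes, 36 lay above 0 (median 0.08). NGDN differed by 0.40 (SE 0.15, adjusted p = 0.701) and the kinase gene RIOK3 by -0.34 (SE 0.15, adjusted p = 0.746). Among 51 other large subunit genes, 38 lay above 0 (median 0.09). TEX10, of the complex that removes an internal spacer RNA, differed by 0.53 (SE 0.15, adjusted p = 0.597) and WDR74 by -0.31 (SE 0.12, adjusted p = 0.714).

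The 9 assembly genes of box particles had 5 members above 0 (median 0.05). NUFIP1, which brings box C/D proteins together, had 8.05, 7.88 and 8.25 in SP cells, against 7.59, 7.72 and 7.44 in non-SP cells, and differed by 0.47 (SE 0.15, adjusted p = 0.612). NAF1, which precedes GAR1 in the box H/ACA particle, had 7.05, 7.53 and 7.29 in SP cells and 6.97, 6.98 and 6.57 in non-SP cells, and differed by 0.45 (SE 0.18, adjusted p = 0.717). Both genes had all SP values above all non-SP values, while RPAP3 of the same list had all below. Over the 145 genes of the 5 lists, 5 had all SP values above and 5 had all below. The shares over all genes were 4.78% and 7.1%. Of 21 exosome and RNase MRP genes, which trim and cut precursor rRNA, 12 lay above 0 (median 0.07), with EXOSC4 at 0.19 (SE 0.12) and RPP38 at 0.20 (SE 0.14).

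The 17 other polymerase I subunits and initiation factors had 6 members above 0 and a median of -0.02. TAF1B, a partner of TAF1D, had 6.72, 6.67 and 6.03 in SP cells, against 7.36, 6.77 and 6.89 in non-SP cells, and differed by -0.53 (SE 0.25, adjusted p = 0.755) with groups that did not overlap. TBP differed by 0.21 (SE 0.14). In this list the samples of high ASNS all lay above the others in 4 genes (23.5%) and all below in 4 (23.5%). Both shares were near those of the genes above the median level, 20.3% and 19%.

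As a check of the line, 8 of 10 ovarian carcinoma markers had a mean above the array median, EPCAM with 12.05 ± 0.05 in SP and 12.20 ± 0.09 in non-SP cells and PAX8 with 10.33 ± 0.25 and 10.42 ± 0.23 (SD, n = 3 each), while MUC16 and MSLN lay below it. The 2 markers of smallest p were keratin gene KRT8, with 7.60, 7.42 and 7.18 in SP and 8.22, 7.70 and 8.40 in non-SP cells (difference -0.71, SE 0.22, adjusted p = 0.611), and E-cadherin gene CDH1, with 10.14, 10.72 and 10.73 in SP and 9.16, 10.25 and 9.82 in non-SP cells (difference 0.79, SE 0.31, adjusted p = 0.709). Markers of leukocytes, fibroblasts and endothelial cells had a mean above the array median for 1 of 6, 1 of 7 and 3 of 6 genes. The median of the leukocyte list was 4.61 to 4.74 in SP and 4.59 to 4.69 in non-SP samples, that of the fibroblast list 4.18 to 4.41 and 4.18 to 4.35, and that of the endothelial list 5.27 to 5.29 and 5.42 to 5.58. The leukocyte-defining gene PTPRC averaged 2.96 in SP cells, against 2.52 in non-SP cells, near the unspiked control probe sets (2.82 to 2.96). ASNS set the split. Of the 11 other amino acid response genes, 6 had all samples of high ASNS above the others (54.5%, against 13.1% of all genes). None of the 12 with ASNS passed the SP against non-SP test in limma (1 at an unadjusted p under 0.05). DDIT4 and ATF4 had the smallest p, with differences of 0.37 (SE 0.12, adjusted p = 0.619) and 0.25 (SE 0.13, adjusted p = 0.795), and ASNS itself differed by 0.82 (SE 1.02, adjusted p = 0.937).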

How the data were processed

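The authors' deposited table holds log2 expression values for 54675 probe sets on 6 arrays; per the submitters' processing notes they used R 2.8.1, affy and RMA, and no other setting is stated in these sources. RMA subtracts background, gives the arrays 1 distribution and merges the probes of a probe set, which compresses differences near background; array medians lay between 5.59 and 5.64. The number of arrays limits the precision.

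Probe sets were named from the platform annotation: 41091 had 1 symbol, 1801 several and 11721 none, and 62 were controls. Of the single symbols, 41037 matched RefSeq by Entrez ID. Each gene was read by 1 probe set, that of highest mean level (19775 genes, no filter on dim ones). SP minus non-SP was tested two-sided on all 6 samples with lmFit and eBayes (limma 3.58.1, R 4.3.3), adjusted by Benjamini-Hochberg over all genes at a threshold of 0.05. Every member is described. Sample values are given for the members with the 10 smallest p, those with separate groups on the probe set chosen, and 8 fixed genes (of which DKC1 has no probe set of its own). Up to 2 genes by p from each further pathway list are named, some with their difference only. Genes and probe sets outside that rule, such as EPCAM, PAX8, KRT8 and CDH1 among the markers, NHP2 in detail, and single probe sets of PPAN, BOP1, NOP16 and POLR1B, were picked with their values in view. The members and lists were chosen with earlier results of these data known. Tested on simulated data for the comparison SP minus non-SP (19775 genes, 5 runs), the fit recovered 57.4%, 94.2% and 99.1% of genes shifted by 1, 2 and 4 log2 units. Each run held 200 shifted genes and noise that was independent between samples, unlike the data, where 1 gene passed and samples parted by ASNS. These shares therefore do not give the chance of detecting a 1-unit change in a member. The alternatives were a replicate block, an ASNS block, other choices of probe set, cyclic loess, array weights, median centring, a trended robust prior, a filter on low levels and the omission of single samples. Python 3.11.15, pandas 2.3.3 and matplotlib 3.10.9 were used for the tables and figures.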

Additional observations from a re-analysis of the deposited data

How the results depend on the processing

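Under 15 alternatives 0 members passed the threshold, and the members' median difference kept its sign (0.03 to 0.25). The count of members above 0 was 19 to 30 of 35 with 1 probe set or mean per gene, 21 to 30 with 1 sample left out, and 44 of 67 when every probe set counted on its own. The count over all genes, 1 in the fit reported, was 5 with the ASNS level as a block, 12 with array weights, 3 with the replicate block, 0 with probe sets averaged per gene, 0 with only genes above the median level, and 1 to 2 with 1 sample left out. Same-numbered SP and non-SP samples had deviations that correlated at 0.45, 0.38 and -0.21 over genes, so the numbers were not taken as pairs. SP replicate 3 and non-SP replicate 2 correlated at 0.4, so these values cannot tell whether samples were paired by sort. With the replicate block the members' median was 0.10 and 25 lay above 0.

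The sign held in all alternatives for 19 of 35 members and turned in at least 1 for 16, all with small differences except TAF1D. With the ASNS block it turned for GAR1 (-0.09), NOLC1 (-0.05), WDR75 (-0.10), RRP9 (-0.08), BYSL (-0.06) and NIP7 (-0.02). Array weights turned NOP10 (0.06), UTP4 (0.12), NOP14 (0.13), TSR1 (0.02) and WDR12 (0.01), and averaging probe sets per gene turned UTP4 (0.21), TSR1 (0.03), LTV1 (-0.19) and WDR12 (0.01). With 1 sample left out, ranges that crossed 0 were -0.05 to 0.32 (BYSL), -0.06 to 0.18 (GAR1), 0.00 to 0.12 (NCL), -0.02 to 0.23 (NIP7), -0.22 to 0.01 (NOB1), -0.02 to 0.22 (NOLC1), -0.27 to 0.12 (NOP10), -0.26 to 0.07 (NOP14), -0.22 to 0.04 (POLR1C), -0.08 to 0.35 (RRP9), -0.02 to 0.79 (TAF1D), -0.17 to 0.05 (TSR1), -0.18 to 0.18 (UTP4), -0.27 to 0.07 (WDR12) and -0.11 to 0.17 (WDR75). The cause was not tested.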
